A study of Mus musculus with 2 samples.

Results

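Dorsal skin of wild-type C57BL/6 mice aged 2 months, described as female, gave 1 control library and 1 library after 5 days of topical imiquimod, a Toll-like receptor agonist used to model psoriasis. Each library holds 3' transcripts of single cells captured in droplets (10x Chromium, dead cells removed beforehand). The cells described here were selected on measured values: at least 2 UMIs (unique molecular identifiers, each counting 1 captured transcript) summed over the rule genes Myf5, Pax7, Chodl and Myod1, no UMI of the leukocyte gene Ptprc, and Krt5 plus Krt14 under 0.5% of the cell's UMIs, in cells with at least 200 genes and at most 10% mitochondrial UMIs. The rule took 135 of 10297 control cells and 162 of 8499 imiquimod cells, 297 of 18796 in all. Both libraries came from whole skin digested with collagenase D and DNase, and the number of animals behind each is not given in the labels. With 1 library in each group there was no test of the treatment. Every difference below is between these 2 libraries, and every interval is a 95% interval that covers counting error only.

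Satellite cells are the stem cells of skeletal muscle. They lie between the muscle fibre and its basement membrane, and in the mouse a thin sheet of skeletal muscle, the panniculus carnosus, runs below the dermis of the back. The transcription factor Pax7 maintains the quiescent cell, Myf5 and Myod1 mark the myogenic lineage and its activation, and Myog starts differentiation. Desmin (Des) is a muscle intermediate filament and Cdh15 (M-cadherin) an adhesion molecule of the satellite cell niche. Notch signalling, read out by Heyl and Hes1, keeps the cells quiescent. After injury muscle stem cells take part in attracting leukocytes, among other ways through chemokines such as CXCL1 and CXCL2, which draw neutrophils through the receptor CXCR2, and CCL2 and CCL7, which draw monocytes.

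The cells taken by the rule were not of 1 kind. Chodl, which encodes the C-type lectin chondrolectin, is also carried by cells without any myogenic factor, and 74 of the 135 control cells and 81 of the 162 imiquimod cells had met the rule by Chodl alone. The other 61 and 81 cells held at least 1 UMI of Myf5, Pax7 or Myod1. Of these, 2 control and 3 imiquimod cells also carried many UMIs of another cell type and were set aside as mixed (over 2% fibroblast, 1% keratinocyte or 1% red blood cell UMIs). The remaining 59 control and 78 imiquimod cells are called satellite-like cells here. That split was made after the values had been seen, so the counts are given for all cells of the rule as well where the 2 differ.

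Markers of the label that the rule did not use were present in the satellite-like cells. All 59 and all 78 held at least 1 UMI of 8 satellite cell genes that the rule did not use (Des, Cdh15, Chrdl2, Asb5, Megf10, Fgfr4, Msc, Edn3), with a median of 8 UMIs in the control and 7 in the imiquimod library. The 8 genes were a choice from 24 listed. At least 1 UMI of them was also held by 37 of 74 control and 41 of 81 imiquimod cells that met the rule by Chodl alone. Des was seen in 51 of 59 and 66 of 78 satellite-like cells. It is not particular to them, as 287 of 328 control and 163 of 192 imiquimod mural-rule cells (defined below) also held it. Cdh15 was seen in 25 of 59 and 37 of 78 satellite-like cells and in 0 mural-rule cells of either library. In satellite-like cells Pax7 was seen in 43 of 59 control and 67 of 78 imiquimod cells, Myf5 in 40 and 45, Chodl in 55 and 73, and Myod1 in 11 and 5. Pax7 and Myf5 were found together in 28 control and 36 imiquimod cells. In both libraries the 20 leading genes by ratio to all other cells included Fam132b, also called erythroferrone, at 606 CPM (each gene's UMIs scaled to the same total) in the control and 781 CPM in the imiquimod library, and Jsrp1, of the muscle triad, at 154 and 170 CPM.

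Markers of leukocytes other than neutrophils and the defining markers of pericytes, melanocytes and Schwann cells were at or near 0 in the satellite-like cells. None of the 6 T and natural killer markers found in the files and none of the 6 mast cell markers had a UMI in either library. Of the 10 macrophage and monocyte markers 8 were at 0 in each library, C1qa, Csf1r and Adgre1 among them, and the list summed to 6.28 CPM in the control and 6.94 CPM in the imiquimod library. Rgs5 and Myh11, which mark pericytes and smooth muscle, were at 0 in both, and so were Pmel and Sox10, of melanocytes and Schwann cells. The 8 neutrophil markers had 1 UMI in control and 33 in imiquimod satellite-like cells, at most 2 in any cell. They summed to 3.14 and 115 CPM, and the part of free RNA in this was not tested. The 5 red blood cell markers summed to 37.7 and 226 CPM. Vascular endothelial, melanocyte and adipocyte markers each summed to at most 6.94 CPM. Keratinocyte markers summed to 330 and 271 CPM, Schwann markers to 220 and 302 CPM, lymphatic endothelial markers to 499 and 514 CPM with Lyve1 at 0 in both, and the pericyte list, which includes Des and Notch3, to 1498 and 2097 CPM. Fibroblast markers were present at a low level and differed between the libraries, with a summed level of 2422 CPM in the control and 937 CPM in the imiquimod library. Dpt, a gene of that list, did not follow the sum. It was at 207 and 316 CPM, in 35 of 59 and 39 of 78 cells, with a log2 ratio of 0.61 (0.13 to 1.09). Summed over the 10 markers, the shares per cell were as follows. They made up 0.0738% to 1.06% of a cell's UMIs in the control library, with a median of 0.224%, and 0% to 0.386% in the imiquimod library, with a median of 0.0538%.

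**Figure D1:**
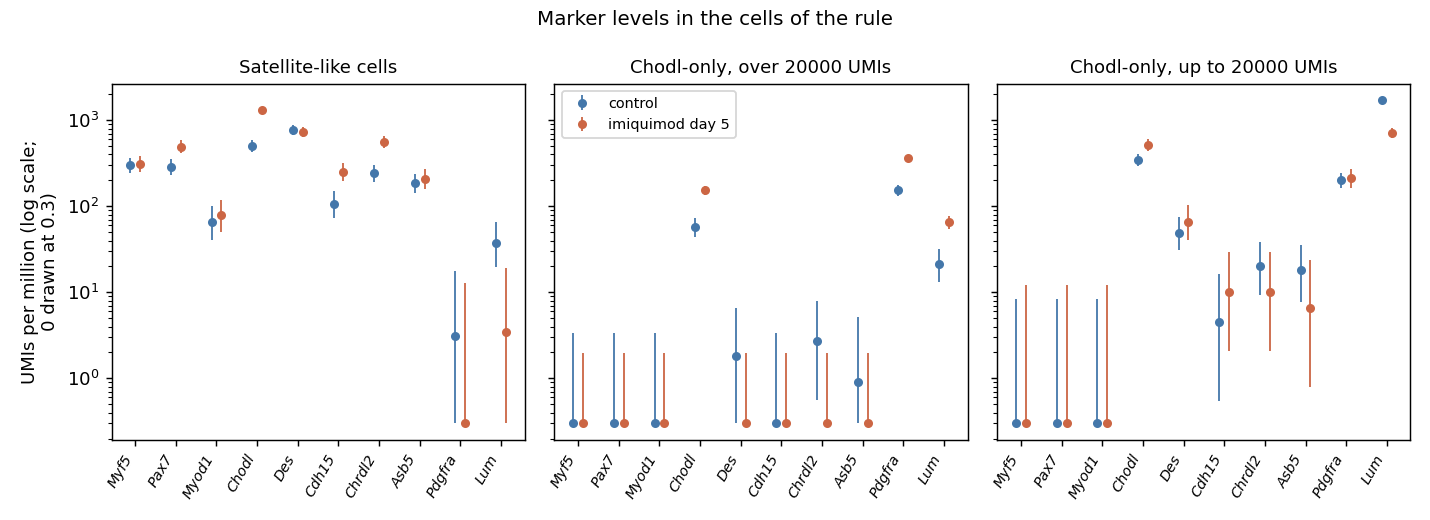
CPM (log axis, 0 drawn at 0.3) of rule genes, satellite cell genes and the fibroblast genes Pdgfra and Lum in the satellite-like cells and in the Chodl-only cells on both sides of 20000 UMIs. Points are library sums and bars 95% counting intervals. Myf5, Pax7 and Myod1 are absent from the Chodl-only cells by definition, and Des stands at 766 and 733 CPM in satellite-like cells against at most 66.4 CPM in the others.

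The mixed cells showed what the set-aside step removed. In the control library 1 cell had 14.4% fibroblast UMIs, and another, with 33477 UMIs, had 8.75% keratinocyte UMIs and 1136 UMIs of Krt10. In the imiquimod library 1 cell had 20.4% red blood cell UMIs and 43 UMIs of Il17a, and another, with 28153 UMIs, had 3.08% fibroblast UMIs and 1701 UMIs of the acute phase gene Saa3. The satellite-like cells together held no Saa3 UMI in the control and 7 in the imiquimod library, each in a different cell. Over all cells of the rule, the 12 lower genes named by size were led by the epidermal keratin Krt77, and 1 mixed control cell held 563 of the 603 Krt77 UMIs. Of the 3954 Saa3 UMIs that led the higher genes, 1701 lay in 1 mixed cell and 2246 in Chodl-only cells.

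At the edge of the rule lay mostly Chodl-only cells. With exactly 2 rule UMIs, 53 control and 17 imiquimod cells were members, of which 8 and 3 held a myogenic factor. Just outside, with 1 rule UMI and the other conditions met, were 99 control and 47 imiquimod cells, 97 and 43 of them by Chodl. Des was seen in 13 and 3 of the cells just outside, and in 16 and 3 of those just inside.

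Cells of the rule were 1.31% (1.10 to 1.55) of the control library and 1.91% (1.63 to 2.22) of the imiquimod library, a ratio of 1.45 (1.15 to 1.84). Satellite-like cells made up 0.573% (0.436 to 0.738) and 0.918% (0.726 to 1.14), a ratio of 1.60 (1.13 to 2.29). A share of cells depends on all other cells of the library and on how much muscle was taken with the skin, and these cannot be told apart here. For comparison, cells meeting a fibroblast rule (at least 3 UMIs of Pdgfra, Dpt and Lum) went from 62.0% to 37.0% of the libraries. The satellite-like cells were shallower in the imiquimod library, and the libraries as a whole were not. They had a median depth of 4483 (control) and 3290.5 UMIs (imiquimod), whereas all cells had a median of 9596 and 12650 UMIs. In all, they held 318333 and 288053 UMIs, so that 3 counts, the limit that a count of 0 allows, correspond to 9.42 and 10.4 CPM. Their median mitochondrial share was 3.13% and 2.07%.

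Cxcl1, Cxcl2 and Ccl2 were lower in the satellite-like cells of the imiquimod library. Cxcl1 stood at 2234 CPM (2072 to 2404) in the control library and at 833 CPM (731 to 946) in the imiquimod library, 2.68-fold lower (2.31 to 3.12). Cxcl2 stood at 751 CPM (659 to 852) and 97.2 CPM (64.6 to 141), 7.72-fold lower (5.21 to 11.9). Ccl2 was at 201 CPM (155 to 257) and 90.3 CPM (59.0 to 132), 2.23-fold lower (1.39 to 3.66). Ccl7 was at 62.8 and 38.2 CPM, on 20 and 11 UMIs, a difference that did not meet the size rule (2-fold, with an interval that leaves out equality). Of the 38 listed chemokines these 4 reached the 20 UMIs over both libraries needed to count as measured in these cells. The median log2 ratio of the 4 was -1.29, and 3 of them met the size rule, beside 4.61% lower over all measured genes. Cxcl12, the ligand of CXCR4, had 4 and 5 UMIs. With the mixed cells kept the log2 ratio of Cxcl2 was -2.16 in place of -2.95, and with at least 2 UMIs of the myogenic factors it was -3.97. In cells of at most 5% mitochondrial UMIs the log2 ratios of Cxcl1, Cxcl2 and Ccl2 were -1.48, -2.96 and -1.17, and in cells of at most 10000 UMIs they were -1.61, -3.30 and -1.27.

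The Cxcl1 UMIs were spread over many cells and the Cxcl2 and Ccl2 UMIs over few. In the control library 48 of 59 satellite-like cells held Cxcl1, with a lowest value of 0, a median of 8.81 and a highest of 212 per 10000 UMIs of the cell. In the imiquimod library 42 of 78 held it, with a lowest value of 0, a median of 3.13 and a highest of 71.3. The ranges of the 2 libraries overlapped, and the cells above 71.3 were all control cells. The 5 highest cells gave 35.4% of the control and 36.7% of the imiquimod Cxcl1 UMIs. Cxcl2 was seen in 21 of 59 and 9 of 78 cells, and the 5 highest cells gave 74.9% and 85.7% of its UMIs. Of the Cxcl2-positive cells 19 of 21 in the control and 8 of 9 in the imiquimod library also held Cxcl1. Ccl2 was seen in 22 of 59 and 14 of 78 cells, and the 5 highest cells gave 65.6% and 65.4% of its UMIs. The counting intervals do not cover this spread between cells.

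**Figure D2:**
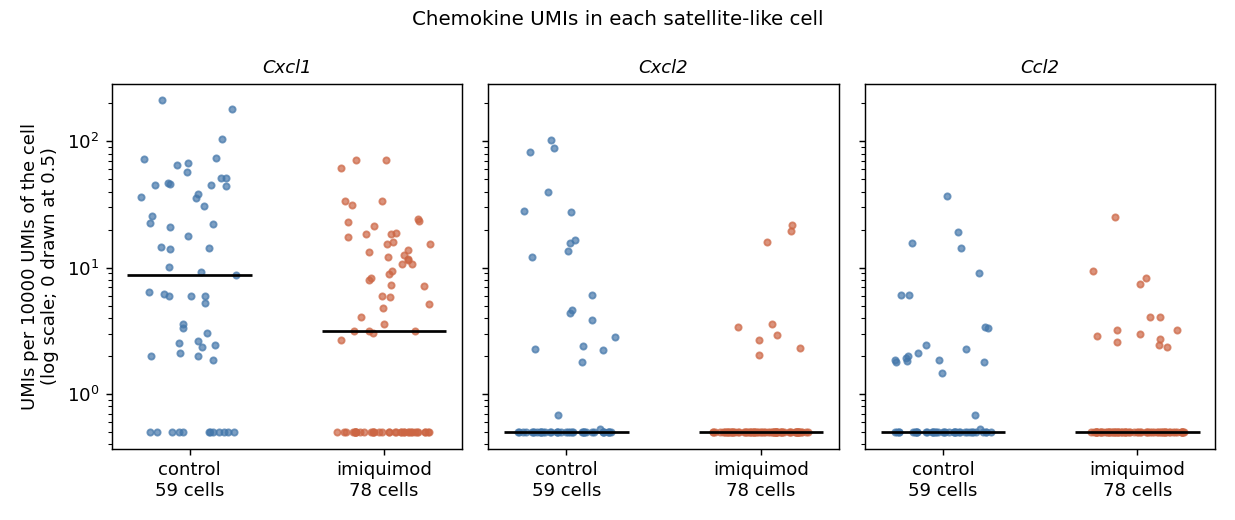
UMIs of Cxcl1, Cxcl2 and Ccl2 per 10000 UMIs in each satellite-like cell (log axis, 0 drawn at 0.5) of the control (59 cells) and the imiquimod library (78 cells). Black lines are medians over cells, which for Cxcl1 are 8.81 and 3.13 and for Cxcl2 and Ccl2 are 0 in both libraries.

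Since satellite-like cells were shallower in the imiquimod library, each cell was also thinned to 3000 UMIs, which left out 5 control and 26 imiquimod cells. Cxcl1 was then seen in 42 of 54 control cells, 77.8% (64.4 to 88.0), and in 30 of 52 imiquimod cells, 57.7% (43.2 to 71.3). The unthinned shares were 81.4% and 53.8%. Cxcl2 was seen in 31.5% (19.5 to 45.6) and 13.5% (5.59 to 25.8) of the thinned cells. Ccl2 was seen in 27.8% (16.5 to 41.6) and 21.2% (11.1 to 34.7) of them, shares whose intervals overlap widely, against 37.3% and 17.9% unthinned. In melanocyte-rule cells (at least 3 UMIs of Pmel, Mlana, Tyrp1 and Dct), with a median of 1644 and 5137 UMIs, Cxcl1 was seen in 1 of 33 control and 2 of 18 imiquimod cells, and after thinning in 0 of 5 and 0 of 14, which allows a share of up to 52.2% and 23.2% (exact binomial). A level for free RNA, called the Col1a1 ceiling here, was taken from Col1a1, a fibroblast gene, by counting all its UMIs as free. It is not an upper limit for other genes, since Col1a1 UMIs were limited by the definition of these cells. Dpt was at 207 and 316 CPM in them, beside 813 and 524 CPM over all cells. Lum was at 37.7 and 3.47 CPM, beside 981 and 700 CPM. The part of free RNA in Dpt and Lum was not tested. Satellite-like cells held 1.43% of the Col1a1 level of the whole control library and 1.56% of that of the imiquimod library. At that share free RNA would give 8.63 and 10.8 CPM of Cxcl1, 1.87 and 9.69 CPM of Cxcl2, and 10.7 and 7.88 CPM of Ccl2. For Cxcl12 it would give 1.08 and 10.3 CPM, beside the 12.6 and 17.4 CPM measured.

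Other classes of cells in the same libraries had other differences, which were not tested against those of the satellite-like cells. In fibroblast-rule cells Cxcl1 was at 982 and 1700 CPM, higher in imiquimod by 0.79 (0.78 to 0.81) on the log2 scale, where in satellite-like cells it was lower, at -1.42 (-1.64 to -1.21). In the control library the Cxcl1 level of satellite-like cells was 2.27 times that of fibroblast-rule cells and 3.66 times that of mural-rule cells (at least 3 UMIs of Rgs5, Kcnj8, Abcc9 and Myh11, at 610 and 507 CPM). In the imiquimod library it was 0.490 times that of fibroblast-rule cells. Cxcl2 was at 168 and 250 CPM in fibroblast-rule cells, 25.9 and 90.2 CPM in mural-rule cells, and 131 and 622 CPM over all cells. Satellite-like cells stood at 5.74 times the level of their library for Cxcl2 in control skin and at 0.156 times after imiquimod. For Ccl2 and Ccl7 they stood below the fibroblast-rule cells in both libraries, which had 1243 and 1164 CPM of Ccl2 and 1451 and 1912 CPM of Ccl7. Cxcl12 was higher in imiquimod in fibroblast-rule cells, at 101 and 1510 CPM, while satellite-like cells had 12.6 and 17.4 CPM. Saa3 was at 8944 CPM in fibroblast-rule cells of the imiquimod library and at 24.3 CPM in satellite-like cells.

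**Figure D3:**
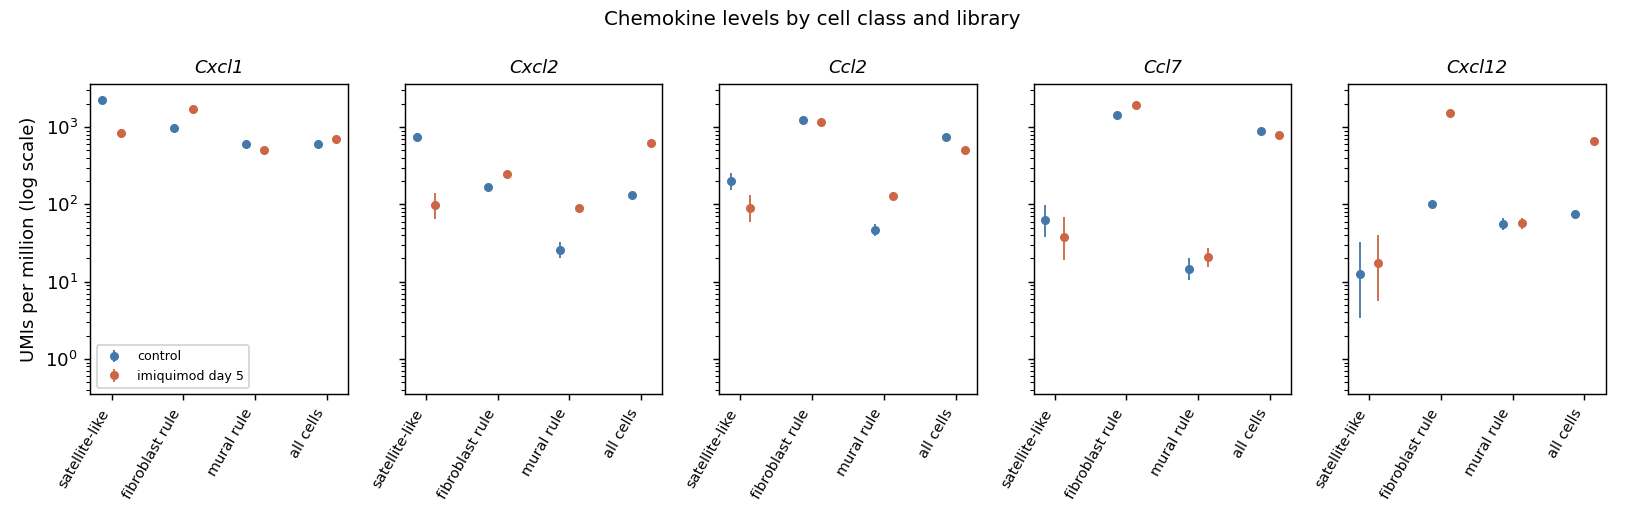
Levels of 5 chemokine genes in CPM (log axis) in satellite-like cells, 2 comparison classes and all cells that passed the filters, for the control and the imiquimod library. Points are library sums and bars 95% counting intervals. Cxcl1 and Cxcl2 are lower in imiquimod in satellite-like cells and higher in fibroblast-rule cells.

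Cxcl1 and Cxcl2 lie near each other on chromosome 5, at 90891241 to 90893115 and 90903871 to 90905938 on the plus strand (GENCODE M21 on GRCm38), and Ccl2 and Ccl7 lie on chromosome 11, at 82035571 to 82037453 and 82045712 to 82047525. The 250 bases before the RefSeq start of the first pair are shown because these were the chemokine genes with the lowest ratios, and because NF-kB genes are described below. The sequences are from RefSeq on GRCm38.p6, plus strand, chr5:90890995-90891244 for Cxcl1 and chr5:90903649-90903898 for Cxcl2. Capitals mark matches to GGGNNTTTC on either strand, a core of the sequence bound by NF-kB.
Cxcl1: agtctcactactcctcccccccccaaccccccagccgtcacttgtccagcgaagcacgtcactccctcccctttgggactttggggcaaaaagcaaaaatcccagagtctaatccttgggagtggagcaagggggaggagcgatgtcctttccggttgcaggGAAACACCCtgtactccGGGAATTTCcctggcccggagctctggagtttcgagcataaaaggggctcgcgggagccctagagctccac
Cxcl2: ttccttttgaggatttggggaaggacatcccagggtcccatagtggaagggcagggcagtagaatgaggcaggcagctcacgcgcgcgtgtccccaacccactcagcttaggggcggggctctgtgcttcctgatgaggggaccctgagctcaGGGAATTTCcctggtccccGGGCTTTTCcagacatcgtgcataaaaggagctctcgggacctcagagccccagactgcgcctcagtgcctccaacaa
Each sequence held 2 matches, at 88 to 80 and 71 to 63 bases before the start in Cxcl1, of which the more distant was on the minus strand, and at 97 to 89 and 78 to 70 in Cxcl2. Of 32851 RefSeq promoters, 3.72% held at least 1 match in their 250 upstream bases and 0.0974% held 2 or more. The upstream sequence of Nfkbia, the inhibitor of NF-kB and one of its target genes, held 2 matches and that of Cxcl12 held 0. The RefSeq promoters used had no entry for Ccl2 or Ccl7, so these genes could not be looked at. A match is a description of the letters, not of binding.

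Over all genes the 2 libraries differed about equally in both directions. Of 3858 genes measured in satellite-like cells, 176 (4.56%) were at least 2-fold higher and 178 (4.61%) at least 2-fold lower in imiquimod, with a median log2 ratio of 0.02. Over all cells of the rule 812 of 10123 measured genes (8.02%) were at least 2-fold higher and 341 (3.37%) at least 2-fold lower. Their median log2 ratio was 0.21, and centring on that median gave 475 higher and 528 lower. The genes named by size in satellite-like cells included, on the higher side, the secreted glutathione peroxidase Gpx3, at 660 and 2697 CPM, 4.09-fold higher (3.51 to 4.79). Gpx3 was seen in 53 of 59 and 77 of 78 cells. Others were Islr at 34.6 and 226 CPM, apolipoprotein E (Apoe) at 993 and 3631 CPM, the small proteoglycan biglycan (Bgn) at 242 and 930 CPM, and the actin-associated genes Palld, at 34.6 and 187 CPM, and Tagln, at 157 and 521 CPM. Crip1, Pde1c, the matrix cross-linking enzyme Loxl1, Igfbp7 and the proteoglycan Prelp were also named, with log2 ratios between 1.63 and 2.05.

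On the lower side Cxcl2 and Cxcl1 were joined by Ifrd1, at 1426 and 524 CPM, the AP-1 member Fosl2, at 292 and 104 CPM, and the chromatin remodelling factor Baz1a, at 129 and 34.7 CPM. Ifrd1 was seen in 58 of 59 and 57 of 78 cells. The other lower genes were Lgals3 and S100a4, of which the highest cell gave 35 of 64 and 63 of 184 control UMIs, and the fibroblast genes Col1a1, Col1a2, Col3a1 and Dcn. Dcn fell short of the size rule without its highest cell, which held 52 of 75 control UMIs, and its log2 ratio turned from -2.63 to 0.72 with the mixed cells kept. With those cells kept, Lgals3, S100a4 and Col3a1 also fell short, and in cells of at most 10000 UMIs S100a4 had a log2 ratio of 0.55. Col1a1 was at 408 and 72.9 CPM, and it was lower in the whole imiquimod library as well, at 28592 and 4677 CPM, and satellite-like cells held 1.43% and 1.56% of that level. Collagen and Dcn UMIs were limited by the definition of these cells, and the part of free fibroblast RNA in these differences was not tested.

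**Figure D4:**
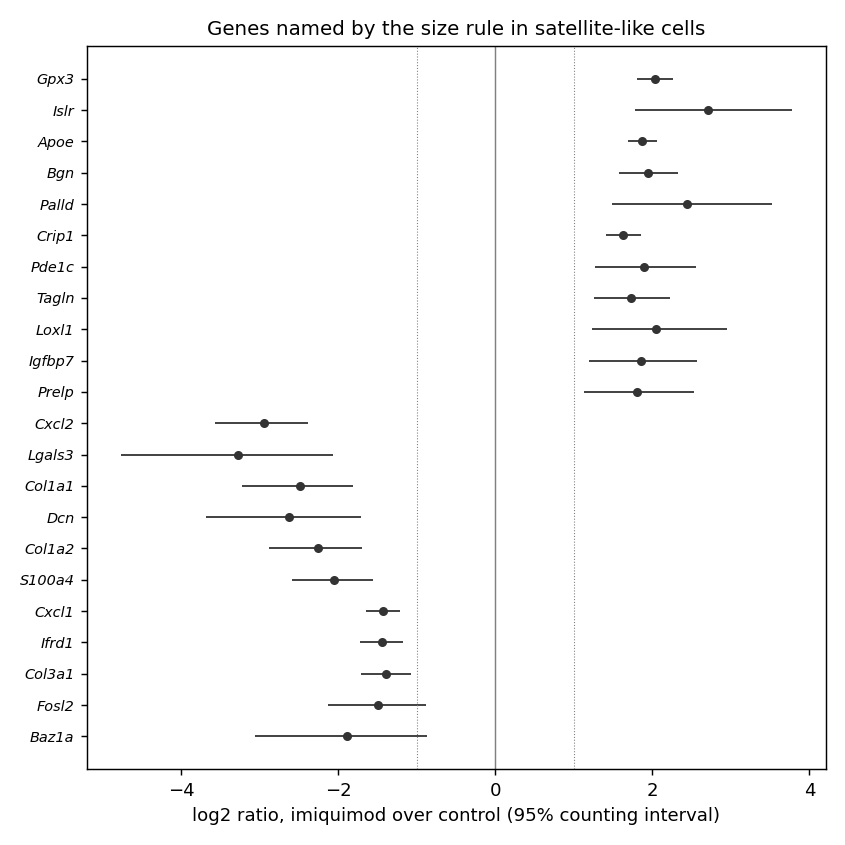
Log2 ratios (imiquimod over control) of 11 higher and 11 lower genes named by size in satellite-like cells, with 95% counting intervals. Dotted lines mark 2-fold. Higher genes lie between 1.63 and 2.71, and lower genes between -3.27 and -1.39.

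The levels of the rule genes, Chodl among them, are a description, because they chose the cells. The same cut of 2 UMIs asks for a larger share of UMIs in a shallower cell, and satellite-like cells were shallower in the imiquimod library. The part of that in the Pax7 and Chodl differences was not tested. Myf5 was at 298 and 309 CPM, Myod1 at 66.0 and 79.8 CPM, and Pax7 at 289 CPM (233 to 354) and 493 CPM (415 to 581), 1.71-fold higher (1.30 to 2.24). Chodl was at 506 and 1302 CPM, 2.57-fold higher (2.13 to 3.12), with a median of 5.87 and 13.1 per 10000 UMIs of the cell. Of the 21 measured satellite cell genes outside the rule, 4 were higher (over all measured genes, 4.56%), 0 lower and 17 neither, with a median log2 ratio of 0.17. The 4 were Gpx3, the niche cadherin Cdh15 (107 and 253 CPM), the BMP antagonist Chrdl2 (242 and 555 CPM) and endothelin 3 (Edn3, 107 and 267 CPM). Des, at 766 and 733 CPM, and the heparan sulphate proteoglycan Sdc4, at 1624 and 1639 CPM, were among those that met the size rule in neither direction, as were the integrin Itga7 (72.3 and 72.9 CPM), the calcitonin receptor Calcr (59.7 and 62.5 CPM) and Fgfr4 (154 and 177 CPM). Chrdl2 fell short of 2-fold when each cell was weighted equally and in cells of at most 10000 UMIs.

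Of 9 measured Notch pathway genes, the targets Heyl (62.8 and 184 CPM) and Hes1 (40.8 and 125 CPM) were higher and none lower (median log2 ratio 0.35), where 4.56% of all measured genes were higher. Heyl was seen in 18 of 59 and 35 of 78 cells. Hes1 was seen in 7 and 13 cells, and its highest imiquimod cell gave 15 of 36 UMIs. The receptor Notch3 was at 154 and 222 CPM. Of 17 measured growth factor genes 5 were higher and none lower (median 0.37, again beside 4.56% higher over all genes): the insulin-like growth factors Igf1 (18.8 and 66.0 CPM) and Igf2 (75.4 and 198 CPM) and the binding proteins Igfbp4 (69.1 and 205 CPM), Igfbp5 (412 and 1000 CPM) and Igfbp7 (78.5 and 285 CPM). Igfbp5 fell short of 2-fold when each cell was weighted equally.

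Of 11 measured genes of commitment and fusion 1 was higher, 1 lower and 9 neither, with a median of -0.12. Over all measured genes 4.56% were higher and 4.61% lower. Myog had 37 UMIs in 4 control cells, 28 of them in 1 cell, and 95 UMIs in 2 imiquimod cells, 91 of them in 1 cell, so that the higher Myog level rests on that cell. The cell cycle inhibitor Cdkn1c, at 424 and 628 CPM, had 124 of 135 and 153 of 181 UMIs in 1 cell. The fibre genes Ttn and Actn3 were the 2 of 20 listed mature muscle fibre genes that were measured, at 47.1 and 17.4 CPM and at 62.8 and 59.0 CPM, with a median log2 ratio of -0.77. Of 32 listed cell cycle genes 5 were measured (Ccnd1, Cenpa, Hmgb2, Top2a and Ube2c). All 5 were lower in imiquimod, beside 4.61% of all measured genes, and their median was -2.91. Cenpa, Top2a and Ube2c reached the 20 UMIs only with their highest cells included. A gene that is measured through its high library alone must come out as different, so the count and the median are not a result about the list. Summed over Mki67, Top2a and Ube2c, 54 of 61 control UMIs lay in 1 cell, and the imiquimod library had 2. Without the highest cell of each library Top2a, Ube2c and Cenpa had under 20 UMIs, and Top2a and Hmgb2 fell short of the size rule with the mixed cells kept. Cyclin D1 (Ccnd1) was at 207 and 79.8 CPM and its highest cell held 14 of 66 control UMIs. Mef2d, a cofactor of the myogenic programme, was at 97.4 and 48.6 CPM, 2.00-fold lower (1.03 to 4.08), and fell short of 2-fold in several of the alternatives.

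Several genes of NF-kB signalling, among them its 4 measured subunit genes (Nfkb1, Rel, Rela and Relb), were lower. Of 20 measured genes of this list 6 were lower (these 4, Nfkbie and Tnfaip6), 0 higher and 14 neither, beside 4.61% lower over all measured genes, and their median log2 ratio was -0.69, against 0.02 over all genes. The subunit precursor Nfkb1 was at 688 CPM (600 to 785) and 309 CPM (248 to 380), 2.23-fold lower (1.73 to 2.88), and Rel at 107 and 48.6 CPM. The inhibitor Nfkbia was at 2334 and 1344 CPM, 1.74-fold lower (1.53 to 1.97), and met the size rule in neither direction. Socs3, an inhibitor of cytokine receptor signalling, went the other way, at 616 and 1041 CPM, 1.69-fold higher (1.41 to 2.04). Tnfaip6 (135 and 59.0 CPM) fell short of the size rule without its highest cell in each library, and had a log2 ratio of 0.43 with the mixed cells kept. The intervals of Rela and Relb nearly reached equality, at 2.02-fold (1.02 to 4.23) and 2.11-fold (1.04 to 4.56) lower.

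Immediate early genes, which also respond to tissue dissociation, were lower or met the size rule in neither direction. Of 29 measured, 5 were lower (Fosl1, Fosl2, Nr4a1, Nr4a2 and Nr4a3) and 0 higher, with a median of -0.15, beside 4.61% lower and 4.56% higher over all measured genes. Fosl1, an AP-1 member, had 32 UMIs in 19 control cells and 0 in the imiquimod library, at least 9.65-fold lower against a limit of 3 counts over the library. Nr4a2 had 27 UMIs and 1. Fosl1 and Nr4a2 counted as measured through their control UMIs alone. With 0 or 1 UMI in the imiquimod library they could only come out as lower. The count of 5 lower includes both, and their calls are not a result about the list. Fos, which dissociation commonly raises, was at 2566 and 4607 CPM, 1.79-fold higher (1.64 to 1.96). Klf4 was at 490 and 278 CPM. The part of dissociation in the chemokine difference was not tested.

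None of 10 measured inflammatory receptors and sensors met the size rule, beside 4.56% higher and 4.61% lower over all measured genes. Their median log2 ratio was -0.03. Osmr, the oncostatin M receptor, was at 251 and 149 CPM, Tnfrsf1a at 101 and 52.1 CPM, and the Toll-like receptor adaptor Myd88 at 50.3 and 93.7 CPM. Tlr7, a receptor that imiquimod binds, had 0 UMIs in both libraries. The 2 measured cytokines did not meet it (Mif at 311 and 267 CPM, Clcf1 at 75.4 and 52.1 CPM), with a median of -0.38. The 3 measured interferon response genes, Ifitm3, Ifitm2 and Ifi27, also met it in neither direction, with a median of 0.04 and Ifitm3 at 1184 and 1371 CPM.

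The counts in the lists that follow are small and stand beside 4.56% higher and 4.61% lower over all measured genes. Of 9 measured MHC class I genes, B2m (185 and 392 CPM) and the peptide-loading factor Tapbp (18.8 and 69.4 CPM) were higher. H2-K1 was at 267 and 413 CPM, and the median of the list was 0.43. B2m fell short of 2-fold with the mixed cells kept, with at least 3 rule UMIs and with at least 2 factor UMIs. Of 5 measured acute phase and complement genes 2 were higher: the serpin Serpina3n, with 0 UMIs in the control and 22 in 13 cells of the imiquimod library, at least 8.10-fold higher, and the complement regulator Serping1 (333 and 698 CPM). Serpina3n counted as measured through its imiquimod UMIs alone, so it could only come out as higher. In cells of at most 10000 UMIs Serping1 fell short of 2-fold and the median of the list went from 0.47 to -0.23. Of 12 measured metal and oxidative stress genes, with a median of 0.07, Txnrd1 was lower, at 286 and 125 CPM. The metallothioneins Mt1 and Mt2 were at 2365 and 4329 CPM and at 1803 and 2739 CPM. Of 18 measured hypoxia and glycolysis genes, with a median of -0.01, Ddit4 was higher (25.1 and 139 CPM), and Hk2 (182 and 59.0 CPM) and Pgam1 (135 and 62.5 CPM) were lower. Of 25 measured matrix genes, with a median of 0.04, Bgn, Timp3 and Adamts5 were higher, and the collagens Col5a3 (276 and 135 CPM) and Col15a1 (251 and 125 CPM) lower. Pgam1, Adamts5, Col5a3 and Col15a1 fell short of 2-fold with the mixed cells kept.

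**Figure D5:**
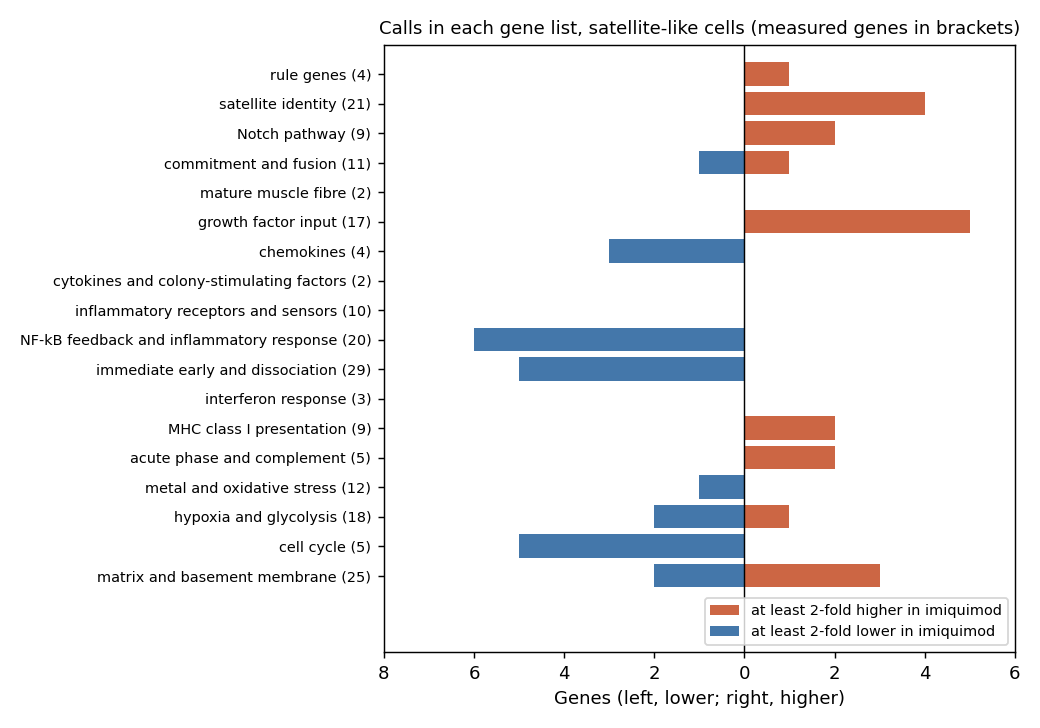
Genes of each list that were at least 2-fold higher (right) or lower (left) in imiquimod in satellite-like cells, with the number of measured genes in brackets. The chemokine list has 3 of 4 lower, the NF-kB list 6 of 20, and the satellite identity list 4 of 21 higher. Over all measured genes 4.61% were lower and 4.56% higher.

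The Chodl-only cells were not of 1 kind either. Of the 8 satellite cell genes outside the rule, 37 of the 74 control and 41 of the 81 imiquimod cells held at least 1 UMI, and 10 and 17 held at least 3. Those of more than 20000 UMIs, 23 in the control and 43 in the imiquimod library, had a median of 44422 and 41808 UMIs. All 23 control cells held Slc26a7, Crabp1, Notum, Inhba and the prolactin receptor Prlr, with Slc26a7 at 1331 CPM and Crabp1, a retinoic acid-binding protein, at 2597 CPM. In the imiquimod library Crabp1 was at 434 CPM, Slc26a7 at 551 CPM and the Wnt inhibitor Notum at 44.3 CPM, against 262 CPM in the control. At least 3 UMIs of the 8 satellite cell genes were held by 2 of these 23 control and 12 of these 43 imiquimod cells. Des had 2 UMIs in these cells in the control and 0 in the imiquimod library, and Cdh15 had 0 in both. In the imiquimod library those UMIs therefore came from the 8 genes other than Des and Cdh15. Of the shallower Chodl-only cells, 31 of 51 control and 15 of 38 imiquimod cells had at least 2% fibroblast UMIs, with a median over all of them of 5.38% and 1.04%, and Col1a1 was at 22640 and 8037 CPM. Of those shallower cells under 2%, 7 of 20 and 5 of 23 held at least 3 UMIs of the 8 satellite cell genes. Neither group is given a cell type name here. In the Chodl-only cells as a whole Cxcl1 was at 143 and 40.4 CPM and Cxcl2 at 24.1 and 3.72 CPM.

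The Chodl-only and mixed cells added to the values over all cells of the rule. Cxcl1 was at 524 and 146 CPM there and Cxcl2 at 170 and 27.9 CPM, both lower in imiquimod as in the satellite-like cells, but Ccl2 at 209 and 138 CPM did not meet the size rule. A Chodl-only cell held 278 of its 347 imiquimod UMIs, and the log2 ratio of Ccl2 was -0.59 over all cells of the rule and 0.24 in those under 2% fibroblast UMIs. Of the 15 chemokines measured over all cells of the rule, 5 were higher, 5 lower and 5 neither. Of all genes measured there 8.02% were higher and 3.37% lower. Cxcl12 had 20 and 280 UMIs, and of the 280, 5 lay in satellite-like cells, 159 in Chodl-only cells and 116 in mixed cells. Cxcl13 had 1 and 293 UMIs, 214 of them in 1 cell.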

How the data were processed

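Raw UMI counts per gene and barcode, deposited by the authors, were the only values used. The matrix headers name Cell Ranger 5.0.0, and the submitters' processing notes name Cell Ranger 3.0.2, Seurat 2.0 and mm10. Depth was 123088680 UMIs over 10857 barcodes (control) and 144054978 over 9414 (imiquimod), at least 500 per barcode. The libraries shared 23 barcodes, of which 0 were members.

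Counts of the chosen cells were summed per library and divided by their total (CPM). Intervals were exact Poisson for CPM, Clopper-Pearson for shares and conditional binomial for ratios, at 95%, and cover counting error only. A gene counted as measured from 20 UMIs in total, and as higher or lower at 2-fold with an interval that left out equality. A count of 0 was set to 3 counts in a ratio. Calling was tested on simulated data. The satellite-like population, the mixed cells, the split at 20000 UMIs and the Col1a1 ceiling were chosen after seeing the data. The named genes were all rule, identity and measured chemokine genes, up to 4 measured members of every other list, and the 12 higher and 12 lower genes of at least 50 UMIs and, in the higher library, 50 CPM and 3 times the free RNA level. Ranking used the interval bound nearer to equality. Some genes, and 1 comparison class defined by such genes, are not reported here, and lists are counted without them. Names beyond these (Igf1, Rel, Rela, Relb, Nfkbie, Klf4, Timp3, Nr4a1, Nr4a3, Ccnd1, Mki67, Tlr7, Saa3, Il17a, Cxcl12, Cxcl13, Fam132b, Jsrp1 and the genes of the Chodl-only cells) were chosen after their values were seen. The planned free RNA estimate, a median over 48 markers of other cells, came to 0% in the satellite-like cells. The free RNA limit on the named genes therefore left out no gene in those cells. The Col1a1 ceiling was added, and it was not used for naming. Tools were Python 3.11.15, numpy 2.4.6, pandas 2.3.3, scipy 1.17.1 and matplotlib 3.10.9. Scrublet (scanpy 1.11.5) called 422 control and 110 imiquimod cells as doublets, 4.10% and 1.29% against 8.24% and 6.80% expected, so that doublets may remain, and these were left out only as an alternative. Gene lists (18, with 6 of 478 symbols not found) and members were chosen with earlier results of these data known. Gene positions came from GENCODE M21 by gene ID, which matched 27645 of 27998. Alternatives covered cell filters, doublets, the minimum of UMIs, weighting of cells, centring, free RNA and thinning.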

Additional observations from a re-analysis of the deposited data

Results flagged for a closer look

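Some chemokine genes went in opposite directions in satellite-like cells and in other classes of the same libraries, with each interval leaving out equality. The difference between classes was not tested, since there is 1 library in each group. Cxcl1 had a log2 ratio (imiquimod over control) of -1.42 in satellite-like cells and of 0.79 in fibroblast-rule cells. Cxcl2 had -2.95 in satellite-like cells, 0.57 in fibroblast-rule and 1.80 in mural-rule cells. Ccl2 had -1.16 in satellite-like cells and 1.47 in mural-rule cells. Other pairs went the same way as the satellite-like cells: Cxcl1 had -0.27 in mural-rule cells and Ccl2 -0.09 in fibroblast-rule cells. Among mural-rule cells thinned to 3000 UMIs, Cxcl2 was seen in 17 of 292 control and 9 of 183 imiquimod cells. Ccl2 was seen in 25 and 20 of them. The intervals of these shares overlap, and whether a few cells carry the higher mural levels was not tested. In thinned fibroblast-rule cells Cxcl2 was seen in 562 of 6007 and 387 of 3035, a higher share after imiquimod. Mixed cells were set aside for the satellite-like cells and not for these classes. Over all cells of the libraries Cxcl2 was at 131 and 622 CPM, and the part of free RNA in these values was not tested.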

How the results depend on the processing

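No paired analysis was possible because each group has 1 library. For satellite-like cells the share ratio moved by less than its interval in all 7 alternatives. Gene ratios stayed inside their counting intervals in 1315 of 1357 values, and these intervals are wide for genes of few UMIs. Some of these values could not move. The minimum of UMIs does not change a ratio, and the planned free RNA estimate was 0% in these cells. Centring moved each ratio by only 0.02 on the log2 scale. Of 53 called genes 16 fell short of the size rule in at least 1 alternative. Another 5 (Myog, Serpina3n, Ube2c, Cenpa and Col1a2) had too few UMIs to be called in at least 1 alternative. Cxcl2 had a log2 ratio of -2.16 with the mixed cells kept and -3.97 with at least 2 factor UMIs. With the mixed cells kept Dcn turned to 0.72 and Tnfaip6 to 0.43. In cells of at most 10000 UMIs S100a4 turned to 0.55 and the acute phase median to -0.23. With no minimum beyond 1 UMI, 307 genes were higher and the chemokine and mature fibre medians were both 0.14. That is the log2 ratio that equal counts give in these 2 libraries, with a count of 0 set to 3. With at least 50 UMIs 63 genes were higher and 63 lower, since fewer were tested. Over all cells of the rule, at least 3 rule UMIs gave a share ratio of 2.14, a chemokine median of 0.42, and -2.24 for Cxcl1, -3.23 for Cxcl2 and -0.95 for Ccl2. Without Scrublet doublets Cxcl2 was at -3.39 and Ccl2 at -0.19. Under 2% fibroblast UMIs the chemokine median was 0.49, Cxcl1 -2.04 and Ccl2 0.24. With cells weighted equally Cxcl1 was at -1.43 and Ccl2 at -1.34. Relative to the median gene, 475 genes were higher and 528 lower, and Cxcl1 was at -2.05. After subtraction at the Col1a1 ceiling 547 genes were lower, the chemokine median was -1.75, and Cxcl1, Cxcl2 and Ccl2 were at -8.25, -6.79 and -5.15, since little was left in the imiquimod library. Over all cells of the rule that ceiling also counts as free the Col1a1 of Chodl-only cells with at least 2% fibroblast UMIs. Without the highest cell Cxcl2 was at -3.29 and Ccl2 at -2.55. With at least 50 UMIs 495 genes were higher and 203 lower, and the chemokine median was 0.68. Unthinned, 60.7% of control and 50.6% of imiquimod cells held Cxcl1. Where no reason is given, the cause was not tested. Genes of under 20 UMIs could not be compared at this depth.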
